A study of Homo sapiens with 6 samples.

Results

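The genes described here belong to the hypoxia-inducible factor (HIF) pathway: the factors EPAS1 (HIF-2 alpha), HIF1A and ARNT, their regulators VHL, EGLN1 and EGLN3, and the target genes VEGFA, CA9, ADM and NDRG1. They were taken by name, and every probe set annotated with exactly 1 gene symbol that belongs to them was read on its own. This gave 42 of the 49395 probe sets on the array, for 9 of the 10 genes; CA9 is not analysed here. The RNA came from 786-O, an established human line of clear cell renal carcinoma, cultured with serum under air. Lentivirus delivered either a negative control short hairpin RNA (shNC, 3 arrays) or an shRNA against PLEKHO1 (shPLEKHO1, 3 arrays). Both groups thus carried a virus and a hairpin. How many hairpins targeted PLEKHO1, the time after infection and whether replicates were separate cultures is not given in the sources used here. All p-values therefore reflect the spread among 6 arrays, and that spread could be technical.

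HIF factors are pairs of an alpha subunit (HIF1A or EPAS1) and the beta subunit ARNT, and they bind hypoxia response elements in the DNA of their target genes. In oxygen, the prolyl hydroxylases EGLN1 and EGLN3 modify the alpha subunit, and VHL, the substrate receptor of a ubiquitin ligase, then marks it for degradation. Most clear cell renal carcinomas have lost VHL, which leaves HIF stable in the presence of oxygen. The 786-O line is widely used as a model of this state: it makes no functional VHL protein and relies on EPAS1, with no functional HIF1A. Protein stability is the main level of this control, and the arrays measured RNA only.

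Of the 42 probe sets, 15 were higher and 8 were lower with shPLEKHO1 at an adjusted p under 0.05 (limma on log2(intensity + 1) after quantile normalization, Benjamini-Hochberg adjustment over 44988 probe sets); "rose" and "fell" below mean this. Over all probe sets tested, 17.3% rose and 15.7% fell, 33.0% in all, against 54.8% of these 42. The 42 read only 9 genes, so they are not independent, and the genes were chosen with earlier results of these data known. The 2 shares were therefore not compared by a test. The groups did not overlap in 26 of the 42, and in 43.0% of all probe sets. The median log2 difference, shPLEKHO1 minus shNC, was 0.08 for the 42 and 0.01 for all. ADM had the largest change, close to 2-fold up on each of its 3 probe sets. EPAS1 and EGLN3 rose on every probe set by 1.39- to 1.53-fold, and NDRG1 fell on all 6 probe sets by 1.22- to 1.28-fold. VHL and EGLN1 each had probe sets that differed in what they showed, VEGFA moved little, and HIF1A lay among the array's background probe sets.

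**Figure D1:**
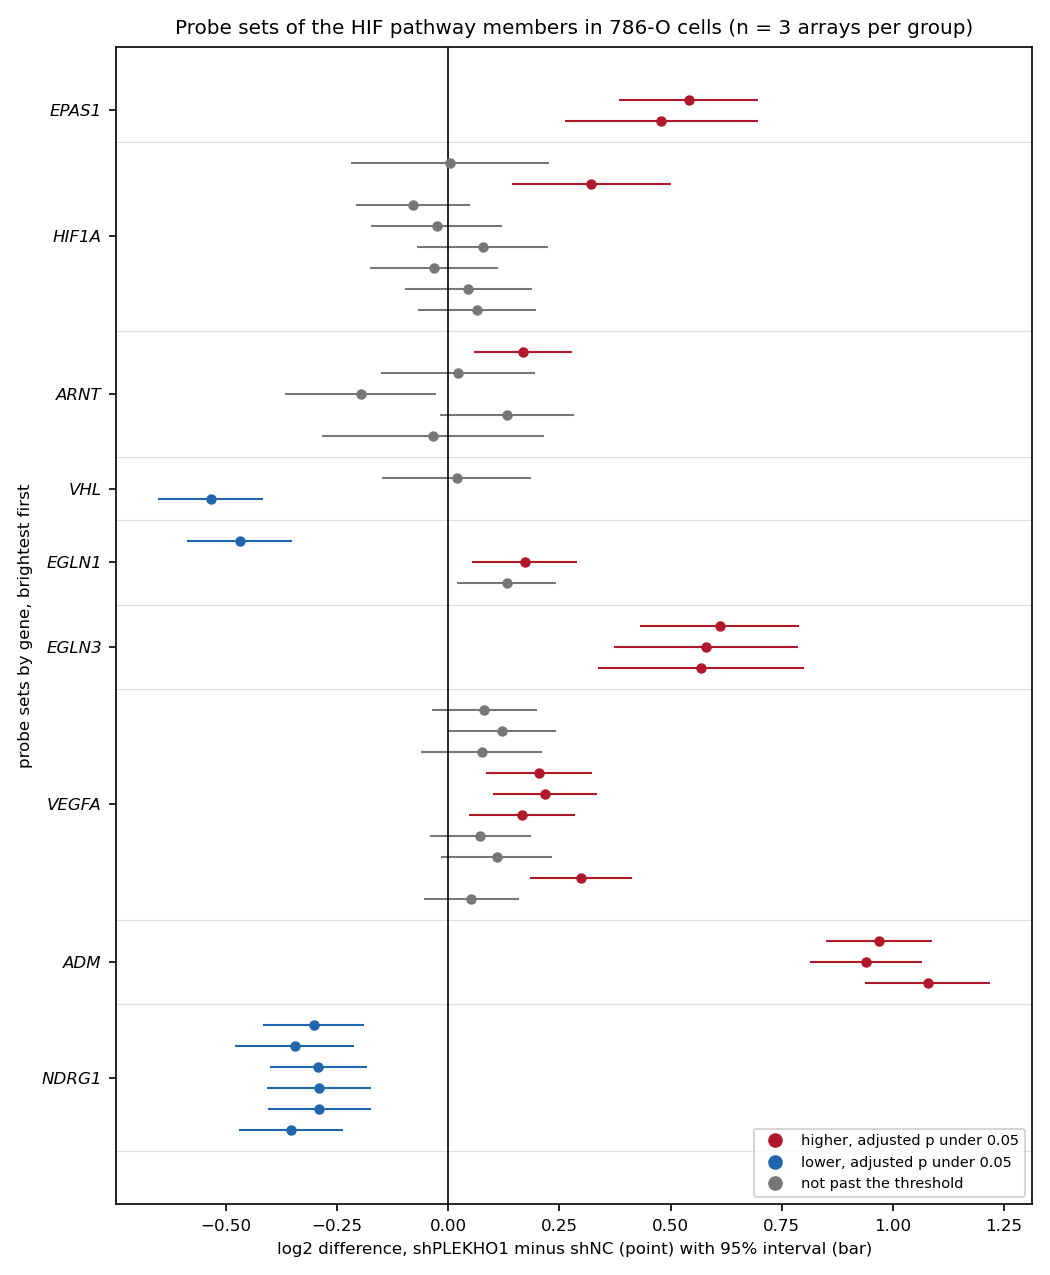
Log2 difference between the groups (horizontal axis, shPLEKHO1 minus shNC) for each of the 42 probe sets, grouped by gene on the vertical axis; points are estimates, bars are 95% intervals from limma, n = 3 arrays per group. The 3 ADM probe sets lie farthest to the right, all 6 NDRG1 probe sets lie left of 0, and EGLN1 and VHL have probe sets apart from each other.

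The core letters of a hypoxia response element are ACGTG or GCGTG, and the promoters of 4 genes that the results turn on are shown with any such match in capitals. They are ADM, EPAS1 and EGLN3, whose probe sets all rose, and EGLN1, whose probe sets split. Each is the 250 bases before the RefSeq start of the gene (GRCh38.p14), read 5′ to 3′ on the gene's strand.
ADM, chr11:10304823-10305072, plus strand: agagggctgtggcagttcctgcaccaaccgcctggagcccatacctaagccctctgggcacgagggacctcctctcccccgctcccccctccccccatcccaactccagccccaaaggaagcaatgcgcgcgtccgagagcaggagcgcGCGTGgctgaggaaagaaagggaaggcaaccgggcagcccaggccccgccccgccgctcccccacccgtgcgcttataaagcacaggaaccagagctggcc
EPAS1, chr2:46297157-46297406, plus strand: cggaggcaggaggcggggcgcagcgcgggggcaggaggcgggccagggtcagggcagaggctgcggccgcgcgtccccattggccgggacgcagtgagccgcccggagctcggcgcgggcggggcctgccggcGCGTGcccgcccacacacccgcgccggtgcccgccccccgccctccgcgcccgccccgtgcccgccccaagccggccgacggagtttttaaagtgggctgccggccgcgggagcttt
EGLN3, chr14:33951075-33951324, minus strand: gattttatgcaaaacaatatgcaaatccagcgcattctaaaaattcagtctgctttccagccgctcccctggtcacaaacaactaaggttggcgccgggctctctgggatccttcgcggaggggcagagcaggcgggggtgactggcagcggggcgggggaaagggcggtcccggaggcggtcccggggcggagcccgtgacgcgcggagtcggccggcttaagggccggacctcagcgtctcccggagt
EGLN1, chr1:231422288-231422537, minus strand: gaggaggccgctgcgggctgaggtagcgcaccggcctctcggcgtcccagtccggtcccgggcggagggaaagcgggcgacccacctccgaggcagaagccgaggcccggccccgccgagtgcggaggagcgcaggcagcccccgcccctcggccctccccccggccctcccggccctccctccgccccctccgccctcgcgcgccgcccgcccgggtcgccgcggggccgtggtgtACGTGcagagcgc
EGLN1 held ACGTG from 13 to 9 bases before the start. ADM held GCGTG from 101 to 97 bases before it, and EPAS1 held GCGTG from 117 to 113 bases before it. The EGLN3 window held neither. Both strands were searched, and a match on 1 strand can overlap a match on the other. Over 35116 windows of this length in the RefSeq table, 18.5% held ACGTG, 32.2% held GCGTG and 43.2% held at least 1 of them, so a match to 5 letters is common. Of the other genes with a window, ARNT held neither, CA9 held ACGTG 18 to 14 bases before its start on the opposite strand, and HIF1A held GCGTG in 1 of its 2 windows, 204 to 200 bases before the start. VHL, VEGFA and NDRG1 had no window here, so their promoters were not searched. A match describes letters only, and binding was not measured.

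PLEKHO1 itself, the targeted gene, had intensities of 135, 143 and 126 with shNC and 110, 116 and 97.4 with shPLEKHO1, so the groups did not overlap. Its log2 difference was -0.32 ± 0.08 (SE; limma adjusted p = 0.0124), and the exact two-sided permutation test gave p = 0.1, the smallest that 3 against 3 arrays allow. By its only probe set tested, PLEKHO1 was 1.25-fold lower with shPLEKHO1 (95% interval 1.10 to 1.41). Median intensity per array lay between 55.7 and 57.1. Across probe sets, log2 values of arrays within a group correlated at 0.998, and those of arrays from different groups at 0.988 to 0.989. Of 9 measured renal markers, 7 lay above the median of their array on all 6 arrays, among them PAX8, PAX2 and VIM; the proximal tubule receptors LRP2 and CUBN lay below it. Of the 9, 2 rose, KRT18 (0.52) and KRT8 (0.32), and 3 fell, CDH6 (-0.96), PAX2 (-0.33) and PAX8 (-0.25), which is 55.6% past the threshold against 33.3% of all 18132 genes. Of 14 measured markers of leukocytes, endothelium, fibroblasts and red cells, 9 lay below the median on all 6 arrays and 4 above it, and their summed intensity was 600 to 646 with shNC and 602 to 696 with shPLEKHO1. The 4 above the median were CD68, VWF, HBB and COL1A1. Leukocyte CD68 had means of 128 with shNC and 146 with shPLEKHO1. It was higher on every shPLEKHO1 array but not past the threshold (limma adjusted p = 0.0969). Leukocyte PTPRC had means of 6.39 and 6.82. Of these 14, 1 rose and 0 fell at limma's adjusted threshold: the fibroblast gene LUM, from 25.7 to 45.8, whose part in the results below was not tested.

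EPAS1 rose on both of its probe sets. It codes for HIF-2 alpha, the alpha subunit on which growth of VHL-deficient renal cancer cells depends. Its brighter probe set (11715411_a_at) read 1306, 1083 and 1231 with shNC and 1659, 1859 and 1749 with shPLEKHO1. Every shPLEKHO1 array was above every shNC array, with means of 1207 ± 113 and 1756 ± 100.3 (SD, n = 3). EPAS1 was 1.45-fold higher with shPLEKHO1 (95% interval 1.30 to 1.62, limma adjusted p = 0.000437). The dimmer probe set (11715412_a_at) read 99.3, 112 and 86.0 with shNC and 135, 147 and 132 with shPLEKHO1, again without overlap. By this probe set EPAS1 was 1.39-fold higher (95% interval 1.20 to 1.62, limma adjusted p = 0.00471). In this cell line, whose HIF-2 alpha protein is known to escape degradation, the RNA of EPAS1 rose, and its protein was not measured.

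HIF1A, the alpha subunit of the acute response to low oxygen, was read by 8 probe sets, with intensities from 5.19 to 12.9 over all arrays. The array carries 23 background probe sets, whose probes match no human gene and which are named by their number of G and C bases, from 3 to 25. Of these 23, 9 were brighter on every array than any HIF1A value. The background probe set for 10 G and C bases read 5.53 on average with both groups, and that for 16 read 13.3 with shNC and 13.9 with shPLEKHO1. All 8 HIF1A probe sets were within the lowest 15.9% of those tested. Background rose steeply with base content, to a mean of 19.4 with 17 and 1926 with 25 G and C bases on the shNC arrays. The base content of the members' probes was not used here, so the matching background level of each probe set, also of the dim ones of ARNT and EGLN3, is unknown.

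One HIF1A probe set of 8 rose (11718759_x_at): it read 7.90, 9.92 and 7.94 with shNC and 11.3, 10.7 and 11.1 with shPLEKHO1. The groups did not overlap, and the log2 difference was 0.32 ± 0.08 (SE; limma adjusted p = 0.0129). The brightest HIF1A probe set (11718758_a_at) read 11.01, 10.3 and 12.4 against 10.5, 10.7 and 12.9, with a log2 difference of 0.00 and a 95% interval from -0.22 to 0.23. Over the 8 probe sets the difference ranged from -0.08 to 0.32, with a median of 0.03. At intensities this close to background, the data set no limit on a difference in HIF1A RNA.

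**Figure D2:**
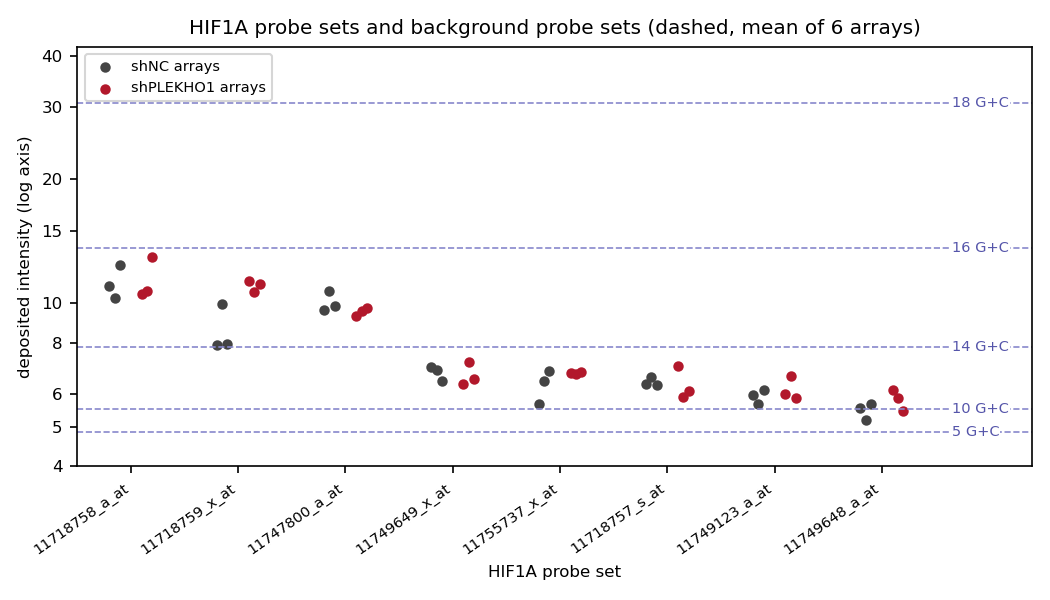
Deposited intensity (vertical log axis) of the 8 HIF1A probe sets (horizontal axis) on the 3 shNC and 3 shPLEKHO1 arrays, with dashed lines at the mean over 6 arrays of background probe sets with 5, 10, 14, 16 and 18 G and C bases. All HIF1A points lie between 5.19 and 12.9, among the background lines.

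ARNT, the beta subunit that both alpha subunits need, was read by 5 probe sets with intensities between 46.8 and 103. One rose (11741381_a_at), from 91.6, 89.2 and 94.5 with shNC to 103.5, 103.2 and 102 with shPLEKHO1. This was a 1.12-fold difference (log2 difference of 0.17 ± 0.05 SE, limma adjusted p = 0.0277), and the call was lost without any 1 of 5 arrays (adjusted p from 0.0509 to 0.0899), holding only without shPLEKHO1 replicate 2. It was also lost with a variance trend and robust fitting (0.0574). Another probe set (11741380_s_at) was below shNC on every shPLEKHO1 array, 56.5, 66.2 and 63.2 against 72.4, 73.6 and 67.3, and did not pass (adjusted p = 0.0781). The remaining 3 overlapped between the groups. The median log2 difference of the 5 was 0.02, so the ARNT probe sets showed no common direction.

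VHL, the substrate receptor of the ligase that destroys hydroxylated HIF alpha, gave different values on its 2 probe sets. On 11752180_x_at it read 348, 323 and 352 with shNC and 227, 238 and 238 with shPLEKHO1, without overlap. That is 1.45-fold lower with shPLEKHO1 (95% interval 1.33 to 1.57, log2 difference of -0.53 ± 0.05 SE, limma adjusted p = 0.000101). On 11748633_a_at it read 427, 459 and 480.5 with shNC and 481, 464 and 442 with shPLEKHO1. There the groups overlapped, with a log2 difference of 0.02 and a 95% interval from -0.15 to 0.19 that does not reach the value of the other probe set. In Affymetrix naming the suffix x marks a probe set in which some probes are similar to other sequences, whereas the suffix a marks one whose probes match variants of 1 gene. The probe sequences were not used here, so which transcripts each of the 2 reads was not tested.

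EGLN1, the prolyl hydroxylase PHD2 and the main oxygen sensor of the pathway, split as well. On 11733856_s_at, its brightest probe set, it read 374, 356 and 369 with shNC and 269, 260 and 259 with shPLEKHO1. The groups did not overlap, and EGLN1 fell 1.38-fold by this probe set (log2 -0.47, 95% interval -0.59 to -0.35, limma adjusted p = 0.000196). On 11753665_x_at it read 209, 209 and 215 with shNC and 227, 249 and 230.2 with shPLEKHO1, a rise by 0.17 ± 0.05 (SE) on the log2 scale (adjusted p = 0.0330). The third probe set, 11733857_x_at, read 213, 205 and 205 against 216, 236 and 224, which is again higher on every shPLEKHO1 array but not past the threshold (0.13, adjusted p = 0.0725). Both probe sets with higher values carry the suffix x explained for VHL, and no EGLN1 probe set carries the suffix a. Which transcripts each of them reads was not tested. The fall kept its call without any 1 array. The rise on 11753665_x_at lost its call without each of the 6 arrays in turn (adjusted p from 0.0574 to 0.0912), and also with median centring (0.0750) and without normalization between arrays (0.0822). The third probe set passed with a pseudocount of 16 (limma adjusted p = 0.0265) and without the lowest 30% of probe sets (0.0385). It also passed with a variance trend and robust fitting (0.0479). Among the 11734 genes with several probe sets, 3.93% had at least 1 probe set that rose and 1 that fell, as EGLN1 did.

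EGLN3, the hydroxylase PHD3, is a known HIF target gene and thereby part of a feedback on its own substrate. All 3 of its probe sets rose. Among genes with 2 or more probe sets, 8.07% had all of them rise, a share not computed for genes with 3. The brightest (11757444_a_at) read 96.4, 79.0 and 89.1 with shNC and 127, 138 and 139 with shPLEKHO1. EGLN3 was 1.53-fold higher by this probe set (95% interval 1.35 to 1.73, limma adjusted p = 0.000457). The second (11733852_at) read 33.7, 29.9 and 34.4 against 45.0, 49.7 and 53.3, and the third (11760606_s_at) read 20.8, 19.8 and 16.9 against 27.6, 32.3 and 27.6. These were 1.49-fold and 1.48-fold higher, so the probe sets gave close values although they differed in brightness. No EGLN3 probe set overlapped between the groups.

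**Figure D3:**
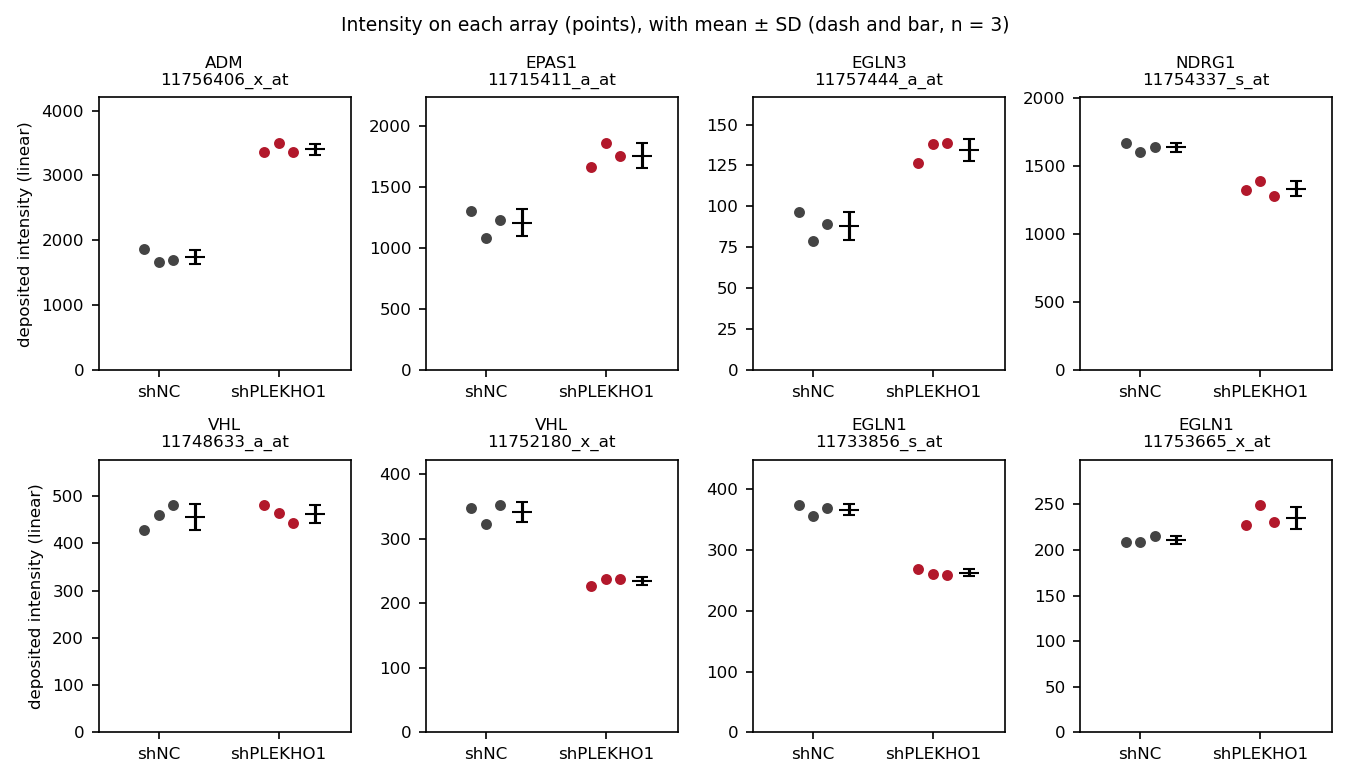
Deposited intensity (vertical linear axis from 0) on each array for 8 probe sets, with shNC and shPLEKHO1 on the horizontal axis; points are arrays, and the dash and bar give mean ± SD (n = 3). ADM, EPAS1 and EGLN3 are higher and NDRG1 lower with shPLEKHO1 without overlap, whereas both VHL and both EGLN1 panels show probe sets of the same gene that differ.

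Among the target genes, ADM rose most. It codes for adrenomedullin, a secreted peptide that widens blood vessels and is a known HIF target gene. Its brightest probe set (11756406_x_at) read 1870, 1665 and 1700.2 with shNC and 3358, 3502 and 3355 with shPLEKHO1. The lowest shPLEKHO1 array was thus far above the highest shNC array, and the means were 1745 ± 110 and 3405 ± 84.2 (SD, n = 3). ADM was 1.96-fold higher by this probe set (95% interval 1.80 to 2.13, limma adjusted p = 5.88e-06), 1.92-fold by 11716710_a_at and 2.11-fold by 11753618_a_at. The second read 1671, 1488 and 1468 against 3010.4, 2885 and 3035, and the third 573, 512 and 563 against 1119, 1248 and 1118. A rise of at least 2-fold was seen in 0.642% of all probe sets and in 1 of these 42, the third ADM probe set.

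VEGFA, the growth factor that drives vessel formation in clear cell renal cancer, was read by 10 probe sets, the most of any gene here. All 10 differences were above 0, from 0.05 to 0.30 on the log2 scale with a median of 0.12, also with median centring and without normalization between arrays. Of the 10, 4 rose. The largest difference was on 11742212_a_at, which read 314, 297 and 294 with shNC and 373, 379 and 358 with shPLEKHO1, a 1.23-fold difference (95% interval 1.14 to 1.33, limma adjusted p = 0.00192). The brightest, 11725372_x_at, read 3286, 3225 and 3114 against 3359, 3223 and 3460.3, where the groups overlapped (0.08, 95% interval -0.04 to 0.20). The rises on 11750313_x_at (0.22) and 11742212_a_at were called without any 1 array. Those on 11725370_s_at (0.20) and 11741965_x_at (0.17) were not: the first was lost without shNC replicate 2, shNC replicate 3 or shPLEKHO1 replicate 3 (adjusted p from 0.0502 to 0.0595), and the second without any 1 array but shPLEKHO1 replicate 2 (0.0715 to 0.129). The second was also lost with median centring (0.0562) and without normalization between arrays (0.0535).

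Differences of this size were also found where no gene is read. The background probe sets with 20 to 25 G and C bases were all brighter on every shPLEKHO1 array than on any shNC array, by 0.12 to 0.19 on the log2 scale. Of these, the one with 25 passed the threshold (0.18, limma adjusted p = 0.0380). Those with up to 15 differed by at most 0.02. Of the small rises, those on 1 probe set each of ARNT, EGLN1 and VEGFA (0.17 in each case) lay within this range. Those on the other 3 VEGFA probe sets (0.20 to 0.30) and on 1 HIF1A probe set (0.32) lay above it. Small rises of listed genes described below, OS9 (0.20), SLC2A1 (0.22) and HIF3A (0.28), lay at or above its upper end. The part of background in them was not tested. The rises of ADM (0.94 to 1.08), EGLN3 (0.57 to 0.61) and EPAS1 (0.48 and 0.54) are larger.

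NDRG1, a growth and differentiation related gene widely used as a marker of hypoxia, went the other way. All 6 of its probe sets fell, and none overlapped between the groups. Among genes with 2 or more probe sets, 6.93% had all of them fall, a share not computed for genes with 6. The brightest (11754337_s_at) read 1668, 1598 and 1640.2 with shNC and 1325, 1389 and 1279.8 with shPLEKHO1. It was 1.23-fold lower (95% interval 1.14 to 1.33, limma adjusted p = 0.00179), with means of 1635 ± 35.1 and 1331 ± 55.1 (SD, n = 3). The largest fall was on 11753232_a_at, which read 447, 400.2 and 411 against 314, 336 and 332 (1.28-fold, adjusted p = 0.000879). The other four differed by -0.34 to -0.29 on the log2 scale. Thus 2 known HIF target genes, ADM and NDRG1, differed in opposite directions on the same arrays.

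Other parts of the HIF control machinery moved in both directions. Of 18 measured genes of a list of 20 further regulators, each read by its brightest probe set, 4 rose and 4 fell, 44.4% in all against 33.3% of all 18132 genes. Their median log2 difference was -0.01. HIF1AN, the asparaginyl hydroxylase FIH that blocks coactivator binding, rose on all 3 of its probe sets. It read 203, 194 and 190.1 with shNC and 265, 297 and 291 with shPLEKHO1, a 1.47-fold difference (log2 difference of 0.55 ± 0.05 SE, limma adjusted p = 0.000116). Within the ligase that contains VHL, the scaffold CUL2 rose from 803, 799 and 800.3 to 1002, 1084 and 1014 (0.36 ± 0.05). The adaptor ELOC, which joins VHL to the scaffold, fell from 2163, 1871 and 1908 to 1537, 1556 and 1458 (-0.39 ± 0.06). Both probe sets of CUL2 and both of ELOC went the same way, and ELOB (0.03) and RBX1 (0.10) did not pass. So 2 subunits of 1 complex differed in opposite directions.

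SIAH1, a ubiquitin ligase that can degrade prolyl hydroxylases, fell from 321, 292 and 308 to 235, 234 and 245, with 3 of 5 probe sets down. The coactivator CREBBP fell from 437, 430.04 and 404 to 362, 351 and 365 on its brightest probe set (-0.23 ± 0.06), with 2 of 5 probe sets down, while EP300 did not pass (0.02). HIF3A, a further alpha subunit, rose on 1 of 9 probe sets (0.28 ± 0.06, from a mean of 69.0 to 83.8). BMAL1, a relative of ARNT best known from the circadian clock, fell on 1 of 3 (-0.37 ± 0.09) and lost its call without shPLEKHO1 replicate 3 (adjusted p = 0.0524). OS9, a lectin of the endoplasmic reticulum reported to bind HIF1A and hydroxylases, rose on 5 of 6 probe sets (0.20 ± 0.05). That call was lost without shNC replicate 1 (adjusted p = 0.0507). EGLN2 and RACK1 are not analysed here.

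A list of 61 other genes known as HIF targets held 58 measured ones. Of these 16 rose, 10 fell and 32 did not pass, 44.8% past the threshold against 33.3% of all genes, and the median log2 difference was 0.01, as for all probe sets. The target genes thus did not share a direction. Of 15 genes of glucose uptake and glycolysis, 5 rose and 2 fell. SLC2A1, the glucose transporter GLUT1, rose on all 4 of its probe sets, from 2794, 2657 and 2599 to 3109.8, 3088 and 3131 on the brightest (1.17-fold, log2 difference of 0.22 ± 0.05 SE, limma adjusted p = 0.00652). Hexokinase HK2 rose (0.52 ± 0.07) and PFKFB3, which makes the activator of phosphofructokinase, fell on all 4 probe sets (-0.77 ± 0.05); both were named after their values were seen. LDHA (-0.03) and PGK1 (0.01), which code for the last enzyme of fermentation and a kinase of glycolysis, did not pass.

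The lowest target gene by log2 difference was BNIP3L, a receptor for the removal of mitochondria, which fell on all 6 probe sets. It read 927, 879 and 870.4 with shNC and 296, 319.5 and 291 with shPLEKHO1, 2.96-fold lower (95% interval 2.74 to 3.20). Its relative BNIP3 did not pass (0.07). FAM162A, a mitochondrial protein of the response to hypoxia, fell on 1 of its 2 probe sets, from 804, 753 and 794 to 309.6, 297 and 317. Of the 5 genes of mitochondria and energy, 2 fell and 1 rose.

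The growth factor TGFA, which stimulates the EGF receptor and is a HIF-2 target gene in renal cancer cells, fell on all 4 of its probe sets. It read 624, 636 and 643 with shNC and 261, 274 and 283 with shPLEKHO1, 2.32-fold lower (95% interval 2.12 to 2.54, limma adjusted p = 3.36e-06). CCND1, cyclin D1 and a HIF-2 target gene in the same cells, read 2733, 2608 and 2633 against 992, 1034 and 969.8. IGFBP3, which binds insulin-like growth factors, read 8301, 8018 and 8277 against 3362, 3387 and 3359.9. Each of these 3 genes was lower on every shPLEKHO1 array than on any shNC array. The same group also held rises: EDN1, which codes for endothelin 1, went from 160.4, 150 and 158 to 364, 387 and 356, and PLAUR, the urokinase receptor, from 429, 407 and 413 to 864, 927 and 889. Of its 11 measured genes 2 rose and 3 fell; the chemokine receptor CXCR4 was dim, with means of 12.5 and 13.5, and did not pass (0.09).

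The gene with the largest rise on the list was TFRC, the transferrin receptor that imports iron, with 3 of 3 probe sets up. It read 1605, 1557 and 1558 with shNC and 4451, 4531 and 4596 with shPLEKHO1, 2.88-fold higher (95% interval 2.68 to 3.10). HMOX1, the haem oxygenase, rose on all 3 probe sets too, from 272, 249 and 260.4 to 479.5, 492 and 478. Of the 4 genes of iron and haem, these 2 rose and CP and TF did not pass. Among regulators and stress genes, 3 of 11 rose and 1 fell. DDIT4, an inhibitor of mTOR, fell from 5005, 4606 and 4659 to 1994, 2289.8 and 2078, and STC2, a secreted stanniocalcin, rose on its brightest probe set from 629, 602 and 620.1 to 1175, 1184 and 1170.1 while another of its 3 probe sets fell. INSIG2, a sterol sensor, rose on 1 of its 3 probe sets (0.58 ± 0.05). The lipid droplet protein PLIN2 (0.00, 95% interval -0.12 to 0.13) and the carbonic anhydrase CA12 (-0.06, 95% interval -0.18 to 0.07), both abundant in clear cell renal cancer, did not pass. Of 6 genes of collagen and matrix, 2 rose and 1 fell.

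**Figure D4:**
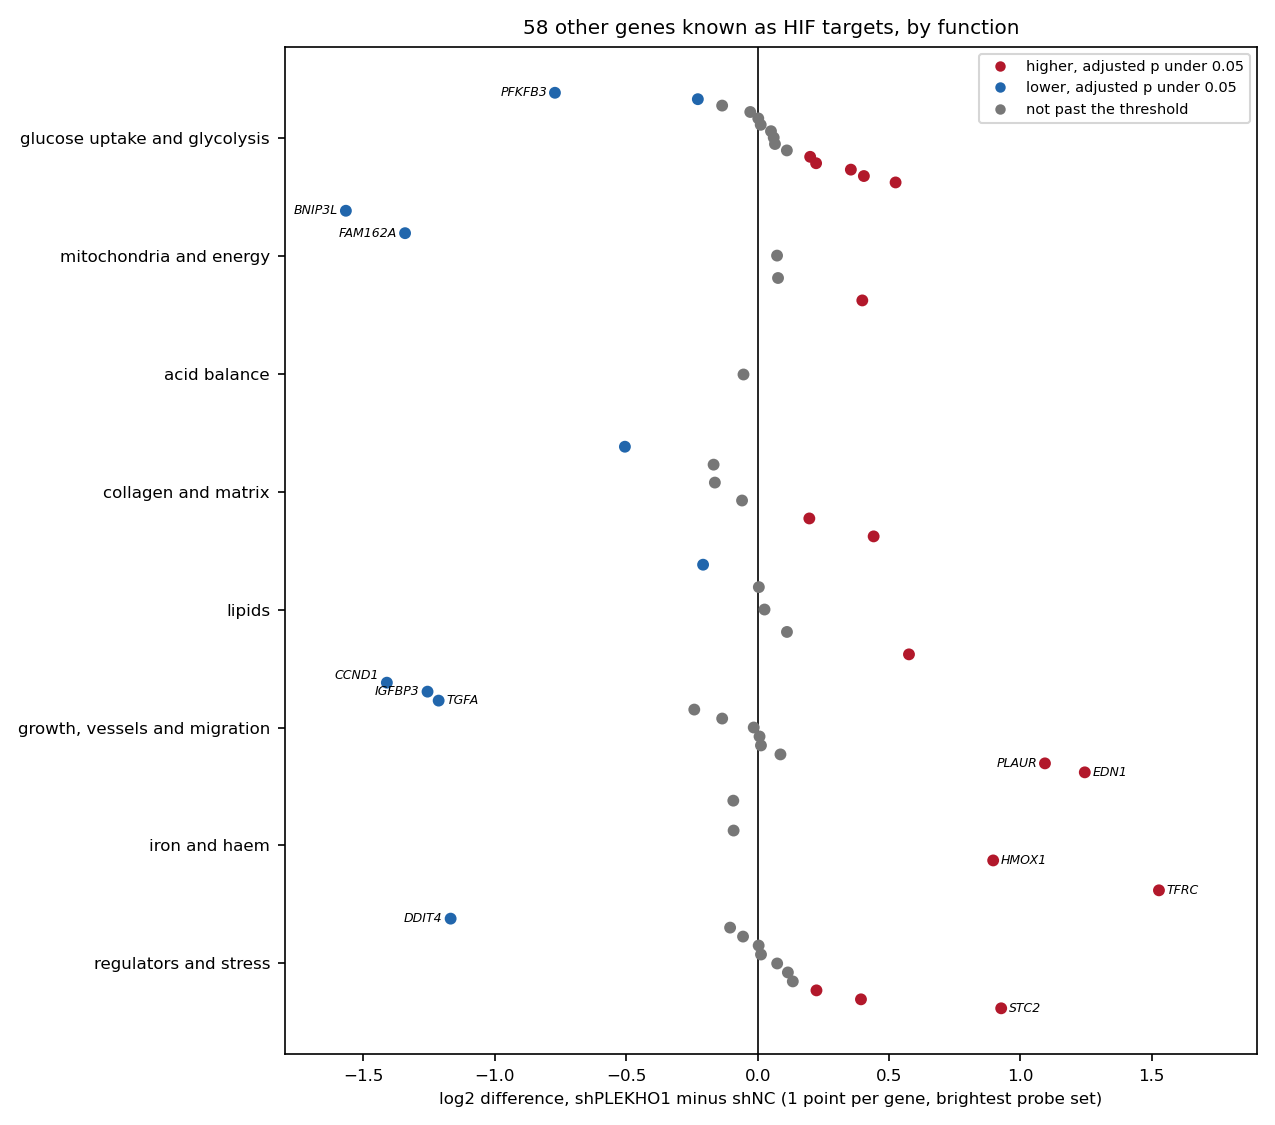
Log2 difference, shPLEKHO1 minus shNC (horizontal axis), for the 58 measured HIF target genes by function (vertical axis), 1 point per gene from its brightest probe set; genes that differed by at least 0.75 are named. The 16 genes that rose and 10 that fell are spread over most groups, from BNIP3L on the left to TFRC on the right.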

How the data were processed

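Per the submitters' processing notes, the authors used Affymetrix Expression Console; neither its version nor algorithm nor normalization is given in the sources used here. They deposited linear intensity values from 4.33 to 19770. Probe sets were named from the platform's annotation, with symbols updated through the RefSeq gene table (44961 of 44988 matched); controls and probe sets without exactly 1 symbol were not tested. Log2(intensity + 1) values, with a pseudocount of 1 that understates changes of dim probe sets, were quantile-normalized over all 49395 probe sets and compared by limma 3.58.1 (lmFit, eBayes; R 4.3.3), without covariates (4 residual and 4.06 prior degrees of freedom), and tested on simulated data. Values per array are as deposited. In lists, a gene was read by its probe set with the highest mean.

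The members and lists were chosen with earlier results of these data known. All members are named, and from each list up to 6 genes per direction with the smallest p plus 7 much studied genes, except where stated. Alternatives were another or no scaling between arrays, no pseudocount or 16, dim probe sets left out, 1 probe set per gene, a variance trend, array weights, a replicate block, a 1.5-fold minimum and each array left out. Promoter windows come from RefSeq. Array number limits the precision.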

Additional observations from a re-analysis of the deposited data

How the results depend on the processing

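Among the members, PLEKHO1, the 8 regulators that passed and 16 targets (the 6 with the smallest p in each direction, SLC2A1, CA12, CXCR4 and PLIN2), none with a call reversed its direction under the alternatives run. The other genes named were not run under them. The median difference over all probe sets was 0.01 with quantile normalization, 0.02 with median centring and 0.02 with no normalization. With 1 probe set per gene, the fit held 9 member genes, of which 4 rose (EPAS1, EGLN3, ADM and ARNT) and 2 fell (EGLN1 and NDRG1); over all genes 3289 rose and 2901 fell. With a minimum fold of 1.5, 4 member probe sets rose and 0 fell (8 fell at limma's adjusted p under 0.05 alone), 0 regulators rose and 0 fell (4 and 4 without the minimum), 5 of the listed targets rose and 7 fell (16 and 10 without the minimum), and over all probe sets 1521 rose and 1949 fell. Without 1 array, 11 to 14 member probe sets rose and 8 fell, 3 to 5 regulators rose and 3 to 4 fell, 14 to 16 targets rose and 10 to 11 fell, and over all probe sets 6583 to 7040 rose and 5996 to 6512 fell. PLEKHO1 fell in each of the 14 alternatives run for it, with log2 differences from -0.37 to -0.25. The fit with 1 probe set per gene and the minimum fold of 1.5 were not run for it. Its 1.25-fold difference lies below that minimum.

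Deviations from the group mean correlated at -0.152, -0.146 and -0.0401 for same-numbered arrays and at -0.0197 to 0.174 for differently numbered ones. Within each group these deviations depend on each other, so the values cannot decide whether the replicate numbers pair the arrays. With the replicate block, 11 member probe sets rose and 8 fell; the calls of 1 ARNT (adjusted p = 0.0801), 1 EGLN1 (0.0783) and 2 VEGFA probe sets (0.0501 and 0.0872), and of OS9 (0.0526), were lost. The HIF1A probe sets were not tested once the lowest 30% were left out. At intensities near background, as for HIF1A and CXCR4, a difference may be compressed, so these data set no limit on it.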

Other observations

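Relatives, receptors and a kinase of the target genes were read as well, from a list of 17 genes drawn up after the members' values were seen; 16 were measured, of which 2 rose and 3 fell on their brightest probe set, where 33.3% of all genes passed in either direction. NDRG1 protein is phosphorylated by the kinase SGK1, and SGK1 rose on all 4 of its probe sets, from a mean of 177 to 420 (2.38-fold, log2 difference of 1.25 ± 0.05 SE, limma adjusted p = 2.46e-06), while NDRG1 RNA fell. NDRG3 fell on 3 of 6 probe sets (-0.30 ± 0.05, adjusted p = 0.00255), NDRG2 did not pass, and NDRG4 did not pass on its brightest probe set (0.15) while 2 of its 4 probe sets rose. The ligand VEGFC fell from a mean of 459 to 352 (-0.38 ± 0.05, adjusted p = 0.000564). Of the neuropilins, coreceptors of VEGF, NRP1 fell on 5 of 6 probe sets (-0.55 ± 0.07), whereas 6 of the 9 probe sets of NRP2 rose and 2 fell. The receptor of adrenomedullin, CALCRL, and its partners RAMP1, RAMP2 and RAMP3 had mean intensities between 8.62 and 37.9, and none of the 4 passed on its brightest probe set (limma adjusted p from 0.165 to 0.922).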
